A study of Mus musculus with 6 samples.

Results

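Threonine, serine and one-carbon metabolism was described by 10 listed genes, Tdh, Gcat, Gldc, Shmt1, Shmt2, Mthfd1, Mthfd1l, Mthfd2, Phgdh and Psat1. They were found by their names among the 23235 rows of the RNA-seq table, and 9 of the 10 had a row. No row used here carries the name Gcat, and that gene was not analysed here. The RNA came from E14Tg2a cells, a mouse embryonic stem cell line, at passages 37 to 40. ESCs kept with leukemia inhibitory factor (LIF) gave 3 samples, each from 2 plates. The other 3 samples were NCs, which are cells of the same line after 48 h (2 days) without LIF in 1 μM retinoic acid (RA). Withdrawal of LIF and addition of RA were made together, so their effects cannot be told apart, and all samples come from 1 line grown in the same serum medium with nonessential amino acids.

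Each gene has 1 FPKM value for ESCs and 1 for NCs, in which the authors' software combined the 3 samples of the condition. FPKM divides the fragments of a gene by transcript length and by the depth of the library, so levels of different genes can be set side by side. The values of single samples were not analysed here, so the spread between replicates is unknown, no SD is given and no difference below was tested. A gene is called lower or higher in NCs when its FPKM differs by at least 2-fold, which is a size and not a level of significance. Of the 13293 genes at 1 FPKM or more in ESCs, NCs or both, 10.6% were at least 2-fold lower and 12.5% at least 2-fold higher in NCs, and the median log2 ratio was -0.03. All 9 measured genes passed this filter. In bulk RNA, fewer cells that express a gene and less RNA of that gene per cell cannot be told apart.

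The markers followed the labels in part. All 7 pluripotency markers were at least 2-fold lower in NCs and all 5 RA response genes at least 2-fold higher. Of the neural markers, Sox1 and Pax6 were at least 2-fold higher and the neuronal tubulin gene Tubb3 was at least 2-fold lower, so NC is used here as the name of the condition. Of 6 markers of primitive or visceral endoderm, 5 were at least 2-fold higher in NCs, and their summed level over all 6 was 16.2 FPKM in ESCs against 37.8 in NCs. Of 3 fibroblast markers, Col1a1 and Col1a2 were 2.25-fold and 6.74-fold higher and Thy1 was 5.36-fold lower, and their summed level was 18.9 FPKM in ESCs against 38.2 in NCs. None of these 9 markers was listed at 0, although Afp, counted as higher, was at 0.0161 and 0.0871 FPKM, and the part of such cells in the results below was not tested. The 3 mesoderm and 3 trophectoderm markers summed to 1.67 and 1.55 FPKM in ESCs and to 1.30 and 1.09 FPKM in NCs.

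As background, cells move single carbon units on folate. Serine is made from a glycolytic intermediate by PHGDH, PSAT1 and PSPH. The SHMT enzymes split it into glycine and a carbon unit bound to tetrahydrofolate, and the MTHFD enzymes pass that unit between its oxidation states, SHMT2, MTHFD1L and MTHFD2 in mitochondria and SHMT1 and MTHFD1 in the cytosol. Glycine gives a further unit through the glycine cleavage system, of which GLDC is the decarboxylase. The units serve the synthesis of purines, thymidylate and methionine. Mouse ESCs are known for an additional source, since they break down threonine in mitochondria with TDH (threonine dehydrogenase) and GCAT to glycine and acetyl-CoA, and mouse ESCs depend on threonine in their medium.

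All 9 measured genes had the lower FPKM in NCs, against 52.0% of all genes. If both conditions are scaled to the same sum, where Phgdh turns, 8 of 9 did, against 33.1% of all genes. With the FPKM as deposited, 5 of the 9 (Tdh, Gldc, Mthfd2, Psat1 and Mthfd1l) were at least 2-fold lower, against 10.6% of all genes. No member was at least 2-fold higher, against 12.5% of all genes. The median log2 ratio of the 9 genes was -1.14. Together they summed to 874 FPKM in ESCs and to 388 FPKM in NCs, so that the sum decreased by 55.6%. Without Tdh the sums were 763 and 386 FPKM, and the sum decreased by 49.4%. The sum over all genes past the filter decreased by 18.5%. All 9 are abundant, and abundant genes spread less between the conditions. Of the 3162 genes with a mean FPKM of at least 30 over both conditions, a limit chosen after the values were seen and one that all 9 members pass, 7.27% were at least 2-fold lower and 3.76% at least 2-fold higher, with a median log2 ratio of -0.19.

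**Figure D1:**
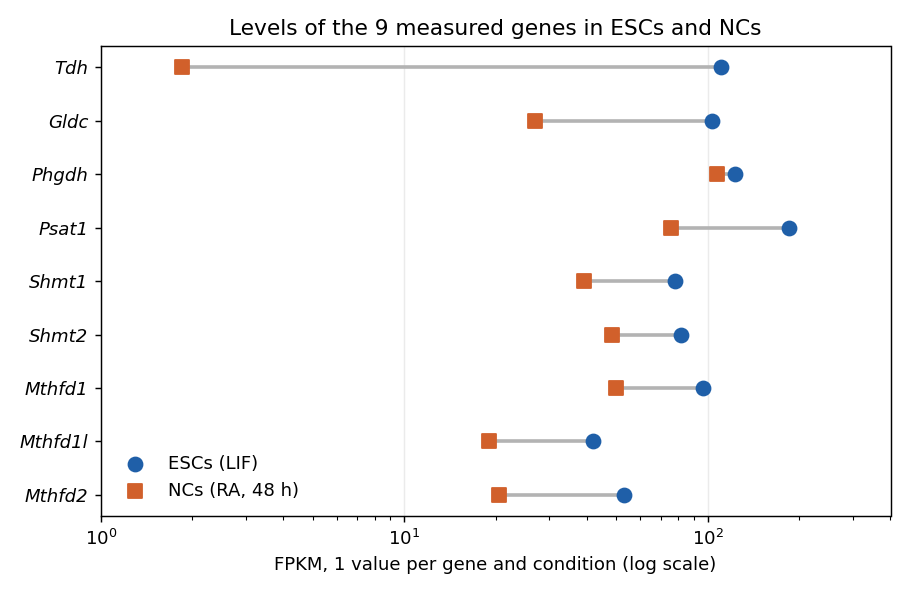
FPKM of each of the 9 measured genes on a log axis, with circles for ESCs, squares for NCs and a line joining the values of a gene; each point is 1 value for 3 samples, so there is no error bar. With the FPKM as deposited every square lies to the left of its circle, though that of Phgdh does not after rescaling, from Phgdh at 123 and 107 FPKM to Tdh at 111 and 1.85 FPKM.

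The scale of the values bears on the smaller differences. All FPKM values summed to 770592 in ESCs and 628679 in NCs. When the values of each condition were rescaled to the same sum, every log2 ratio shifted by 0.29 upward. On that scale 980 genes (7.37%) were at least 2-fold lower and 2350 (17.7%) at least 2-fold higher, in place of 1412 and 1658 with the FPKM as deposited. Of the 9 genes, 4 were then still called lower (Tdh, Gldc, Mthfd2 and Psat1, the last with a log2 ratio of -1.01), Mthfd1l was at -0.85 and Phgdh turned to 0.09. Centring on the median of -0.05 over the 11717 genes at 1 FPKM or more in each condition left the same 5 genes called.

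Tdh (chromosome 14, 63492347 to 63509092, minus strand) is the first step of threonine breakdown. It had 111 FPKM in ESCs against 1.85 in NCs. ESCs were therefore 60.0-fold higher, and the log2 ratio of -5.91 was the lowest of the 9 genes. Only 42 of the 13293 genes had a lower ratio, and among the 847 genes with an ESC level at least that of Tdh there were 3. In ESCs its level was above that of 93.6% of the genes and close to that of Phgdh. In NCs it was above that of 13.2%, and the FPKM of Phgdh divided by that of Tdh went from 1.11 to 57.9. The NC value is low but not at the limit of detection. Read from the steps between the lowest values in the table, it rests on at least 217 fragments, a counting error of up to 6.79% that leaves out the spread between samples.

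Of the 7 pluripotency markers, 2 had a lower log2 ratio than Tdh. The 5 genes nearest to Tdh in the plane of the ESC and NC levels, on a scale of log2(FPKM + 1) over these 2 conditions, were Esrrb, Fgf4, Sept1, Hsd17b14 and Triml2. Esrrb lay at a distance of 0.51 with 128 FPKM in ESCs against 2.94 in NCs. Triml2 lay at 1.17 with 58.6 and 3.77 FPKM. With 2 conditions such a likeness holds no more than a pair of levels. Of the 50-base words in the Tdh transcript, 15.0% also occur in Gm13929, and 66 exonic bases overlap the antisense gene Gm17232. The library kit is not described as keeping the strand, and the authors' handling of reads with several positions is not given in the sources used here.

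GCAT takes the product of TDH on to glycine and acetyl-CoA. Its gene lies on chromosome 15 (79030874 to 79038353, plus strand), where the annotation has another gene model of the same name that runs on to 79042531. That longer model shares 363 exonic bases with Galr3 (79041885 to 79043558, same strand), a galanin receptor gene. The row named Galr3 had 38.5 FPKM in ESCs against 24.9 in NCs, a 1.55-fold lower value. Whether fragments of Gcat are counted in that row was not tested, and it is not taken as a value of Gcat.

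Gldc (chromosome 19, 30098447 to 30175429, minus strand) had 103 FPKM in ESCs against 26.9 in NCs. It was 3.84-fold lower in NCs, a log2 ratio of -1.94, and 3.80% of all genes had a lower ratio. None of its 50-base words occur in another gene. The other subunits of the glycine cleavage system differed by less than 2-fold. Gcsh, the carrier protein, had 104 and 69.3 FPKM. Amt, the aminomethyltransferase, had 34.9 and 21.3 FPKM. Dld, which this system shares with pyruvate dehydrogenase, had 48.8 and 51.1 FPKM. Gldc and Gcsh were thus near equal in ESCs, whereas in NCs the level of Gcsh was 2.58 times that of Gldc.

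Phgdh (chromosome 3, 98313170 to 98339990, minus strand) encodes the enzyme that commits 3-phosphoglycerate to serine. Of the 9 genes it differed least, with 123 FPKM in ESCs against 107 in NCs, a 1.15-fold lower value and a log2 ratio of -0.20. It was the most abundant of the 9 genes in NCs and the next after Psat1 in ESCs. Its value is uncertain, since 63.1% of its 50-base words, the highest share among the 9 genes, also occur in other genes, most of them in Gm7901, Gm9347 and Gm8341. Psat1 (chromosome 19, 15904678 to 15947337, minus strand) encodes the aminotransferase of the next step, and 1.07% of its words are shared. Psat1 had 186 FPKM in ESCs, the highest value among the 9 genes, which was 2.46-fold that of NCs (75.5 FPKM). The FPKM of Psat1 divided by that of Phgdh was 1.51 in ESCs and 0.706 in NCs. Psph, the phosphatase that completes the serine pathway, had 32.9 FPKM in ESCs against 18.7 in NCs, within 2-fold.

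**Figure D2:**
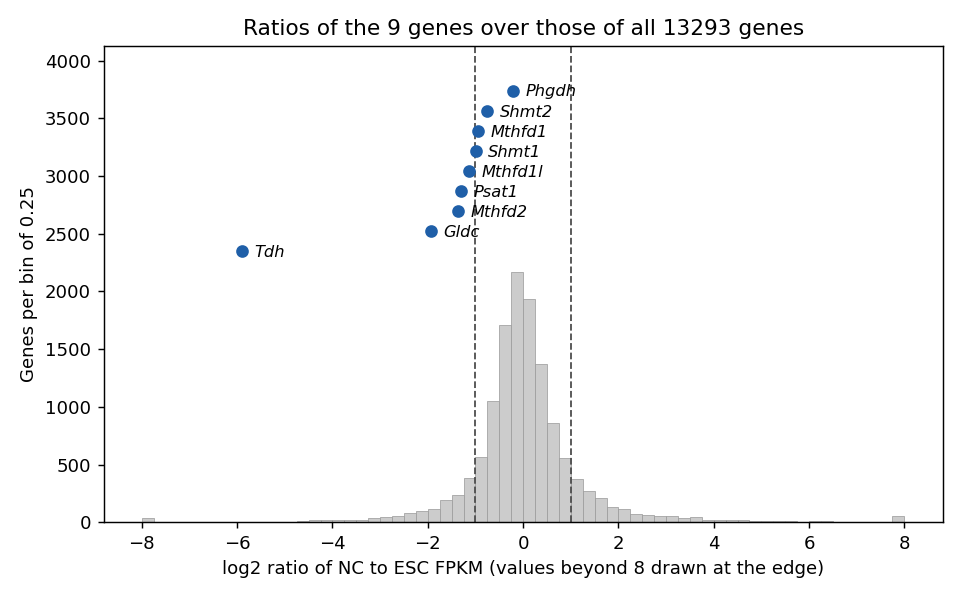
Histogram of the log2 ratio of NC to ESC FPKM for the 13293 genes, in bins of 0.25, with the 9 genes as named points whose height has no meaning and dashed lines at a 2-fold difference. Tdh lies far to the left at -5.91, and the other 8 genes lie between -1.94 for Gldc and -0.20 for Phgdh, all left of 0 with the FPKM as deposited, whereas Phgdh is at 0.09 after rescaling.

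The SHMT genes were within 2-fold. Shmt1, which encodes the cytosolic enzyme (chromosome 11, 60788104 to 60811718, minus strand), had 78.3 FPKM in ESCs against 39.2 in NCs. Its log2 ratio of -0.998 lies just inside the 2-fold limit, and 10.7% of all genes had a lower one. Shmt2, which encodes the mitochondrial enzyme (chromosome 10, 127517123 to 127522444, minus strand), had 81.9 and 48.4 FPKM, a 1.69-fold lower value. Shmt2 made up 51.1% of the summed Shmt level in ESCs and 55.2% in NCs. Shmt1 shares 184 exonic bases with Smcr8 on the opposite strand, which had 9.93 FPKM in ESCs against 9.82 in NCs. Shmt2 shares 32 exonic bases with Ndufa4l2, also on the opposite strand, which had 38.0 and 4.04 FPKM.

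Among the 3 MTHFD genes of the 10 listed, Mthfd2 and Mthfd1l, of mitochondria, passed the 2-fold limit and Mthfd1, of the cytosol, did not. After rescaling, Mthfd2 alone passed it. Mthfd2 (chromosome 6, 83305691 to 83325908, minus strand), the dehydrogenase and cyclohydrolase, had 52.8 FPKM in ESCs against 20.6 in NCs, a 2.57-fold lower value. Mthfd1l (chromosome 10, 3973118 to 4167081, plus strand), which releases formate from mitochondria, had 42.0 and 19.0 FPKM, a 2.21-fold lower value. Mthfd1 (chromosome 12, 76255298 to 76319803, plus strand), the trifunctional enzyme of the cytosol, had 96.2 and 49.9 FPKM, a 1.93-fold lower value. The ratios of Mthfd1l and Mthfd1 were -1.14 and -0.95 on the log2 scale, and whether they differ was not tested. None of the 50-base words of these 3 genes occur in another gene, and 37 exonic bases of Mthfd1 overlap Gm47525 on the opposite strand. Mthfd2l, a relative of Mthfd2, was not among the 10 genes and had 2.04 FPKM in ESCs against 2.68 in NCs. It belongs to the list of folate enzymes and transporters described below, which was chosen with earlier results of these data known. In the summed Mthfd level, the share of Mthfd1 was 49.8% in ESCs and 54.1% in NCs, that of Mthfd1l 21.7% and 20.6%, that of Mthfd2 27.4% and 22.3%, and that of Mthfd2l 1.06% and 2.91%. The sum itself was 193 FPKM in ESCs against 92.1 in NCs.

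**Figure D3:**
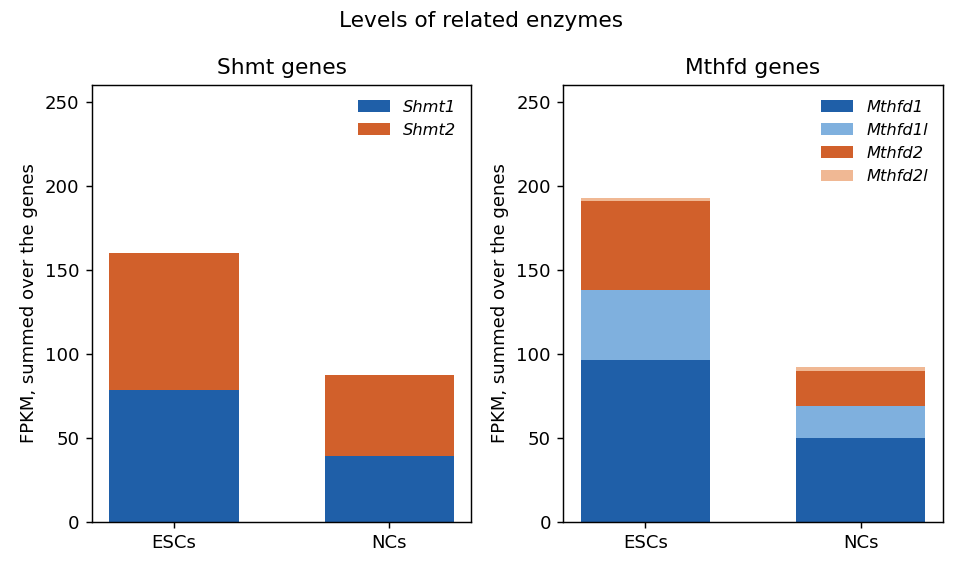
Stacked bars of FPKM for the Shmt genes (left) and the Mthfd genes (right) in ESCs and NCs, each segment 1 gene and each bar starting at 0; there are no error bars because each value is 1 estimate for 3 samples. Both bars are lower in NCs (87.6 against 160 FPKM for Shmt and 92.1 against 193 FPKM for Mthfd), while the proportions of the segments differ little.

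Counting error was small for the members. Other than Tdh in NCs, each value of the 9 genes rests on at least 2718 fragments, for a counting error of up to 1.92%. In order of ESC level the genes were Psat1, Phgdh, Tdh, Gldc, Mthfd1, Shmt2, Shmt1, Mthfd2 and Mthfd1l, and neighbours in this order such as Shmt2 and Shmt1 cannot be ranked without the spread between samples. In order of NC level they were Phgdh, Psat1, Mthfd1, Shmt2, Shmt1, Gldc, Mthfd2, Mthfd1l and Tdh. Tdh, Gldc and Psat1 each held a lower place in the NC order, where Psat1 came next after Phgdh.

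The promoters of the 10 listed genes were searched for 3 short motifs in the 250 bases before each RefSeq gene start (GRCm38.p6), on both strands. RefSeq windows were found for 9 of the 10 genes (10 windows, of which Psat1 has 2). Gcat, which has no level here, is among them, and Tdh is not. The core TGATGNAA of the composite element bound by ATF4, a factor known to act on serine and folate genes, was in 0 of 10 windows and in 3.45% of all 32851 windows. The E-box CACGTG was in 0 of 10 and in 6.02% of all windows. The CCAAT box was in 6 of 10 and in 33.8% of all windows, in those of Phgdh, Mthfd2, Shmt1, Mthfd1, Psat1 and Gldc. Since the other motifs had no match, none overlapped a CCAAT box, and a match or its absence describes these letters only. The last 100 bases before the start are shown for 3 members that were at least 2-fold lower in NCs and hold the box, with CCAAT, or ATTGG where it lies on the other strand, in capitals. All are read 5′ to 3′ on the minus strand, upstream of RefSeq starts that for Mthfd2 and Psat1 lie inside the longer GENCODE extent given above, from chr6:83317605-83317704 for Mthfd2, chr19:15925060-15925159 for Psat1 and chr19:30175442-30175541 for Gldc.
Mthfd2: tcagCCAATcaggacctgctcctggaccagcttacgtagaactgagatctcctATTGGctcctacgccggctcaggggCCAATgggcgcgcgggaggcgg
Psat1: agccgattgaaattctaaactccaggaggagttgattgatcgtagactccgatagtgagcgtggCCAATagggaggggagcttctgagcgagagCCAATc
Gldc: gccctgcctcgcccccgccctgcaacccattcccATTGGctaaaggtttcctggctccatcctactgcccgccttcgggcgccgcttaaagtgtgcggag
The Mthfd2 stretch holds 3 boxes, that of Psat1 holds 2 and that of Gldc holds 1.

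The genes that surround the 10 were taken from 6 lists of 67 genes, of which 58 passed the filter. Of these, 17 were at least 2-fold lower in NCs and 2 at least 2-fold higher, against 10.6% and 12.5% of all genes, and the median log2 ratio was -0.50. After rescaling both conditions to the same sum, 10 were lower and 3 higher, against 7.37% and 17.7% of all genes. Of the other serine and glycine enzymes, 0 of 5 were called, with a median of -0.58, and Gcsh was the most abundant. Among 14 folate enzymes and transporters the median was 0.06, with 2 called lower and 2 called higher, which is near the 10.6% and 12.5% of all genes. Aldh1l1, which oxidizes formyl-tetrahydrofolate in the cytosol, had 6.25 FPKM in ESCs against 1.31 in NCs, and its mitochondrial relative Aldh1l2 had 1.14 and 0.552 FPKM. The folate receptor gene Folr1 was 3.03-fold higher in NCs, with 14.1 FPKM in ESCs against 42.6 in NCs. The proton-coupled folate transporter gene Slc46a1 had 5.38 and 11.3 FPKM. The thymidylate synthase gene Tyms, chosen after its value was seen, differed by 0.31 on the log2 scale, the higher level being in NCs. With a pseudocount of 1, Aldh1l2 and Slc46a1 were within 2-fold, as was Aldh1l2 after rescaling.

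In the methionine cycle and transsulfuration, 4 of 10 genes were called lower and 0 higher, against 10.6% and 12.5% of all genes. The median of the list was -0.46. Cbs and Cth, the pair of enzymes that turn homocysteine and serine into cysteine, were 8.19-fold and 5.59-fold lower. Cbs had 15.3 FPKM in ESCs against 1.86 in NCs, and Cth had 28.2 and 5.04 FPKM. Gnmt, a glycine methyltransferase, had 6.70 and 2.05 FPKM, and Mtrr, which reactivates methionine synthase, had 18.3 and 8.88 FPKM. Ahcy, which removes S-adenosylhomocysteine and was the most abundant gene of this list, was within 2-fold at 228 and 164 FPKM.

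All 12 genes of de novo purine synthesis had the lower level in NCs, against 52.0% of all genes, and 2 were called lower, against 10.6% of all genes. After rescaling, 9 of 12 had the lower level, against 33.1% of all genes. Prps1, which makes the ribose donor, had 123 FPKM in ESCs against 41.6 in NCs. Gart, an enzyme that takes a formyl unit from folate, had 160 and 79.9 FPKM and a log2 ratio of -1.004, just past the limit. The median of the list was -0.54, and its summed level decreased by 39.7%. Of 6 genes for tRNA charging with threonine, serine or glycine, 2 were called lower and 0 higher, against 10.6% and 12.5% of all genes. The 2 were Tars (82.1 and 39.7 FPKM) and Sars (98.2 and 46.7 FPKM), the cytosolic threonyl and seryl enzymes. After rescaling, Mtrr, Gart, Tars and Sars were within 2-fold, as were Mtrr and Gart with a pseudocount of 1.

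The list closest to the 9 genes in size of difference was that of ATF4, a factor of the amino acid response, and genes known to respond to it. Of 11, 7 were called lower and 0 higher, against 10.6% and 12.5% of all genes. The median of the list was -1.19, and its summed level decreased by 51.5%. Atf4 itself had 123 FPKM in ESCs against 54.8 in NCs. Asns, asparagine synthetase, had 158 and 69.2 FPKM. Trib3, a pseudokinase gene, was 4.91-fold lower, with 12.4 and 2.52 FPKM. Chac1, whose enzyme degrades glutathione, was 5.29-fold lower, with 6.60 and 1.25 FPKM. Ddit3, which encodes the stress factor CHOP, had 40.8 and 15.4 FPKM, Nupr1, a stress-induced chromatin protein gene, 25.7 and 6.69 FPKM, and Pycr1, an enzyme of proline synthesis, 13.8 and 4.56 FPKM. Atf5 and Cebpb, chosen after their values were seen, had the higher level in NCs, at 12.8 and 6.79 FPKM against 11.2 and 5.58 FPKM in ESCs. After rescaling, Atf4 and Asns were within 2-fold and the other called genes of the list stayed lower. Of all genes, 7.37% were then at least 2-fold lower and 17.7% at least 2-fold higher.

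**Figure D4:**
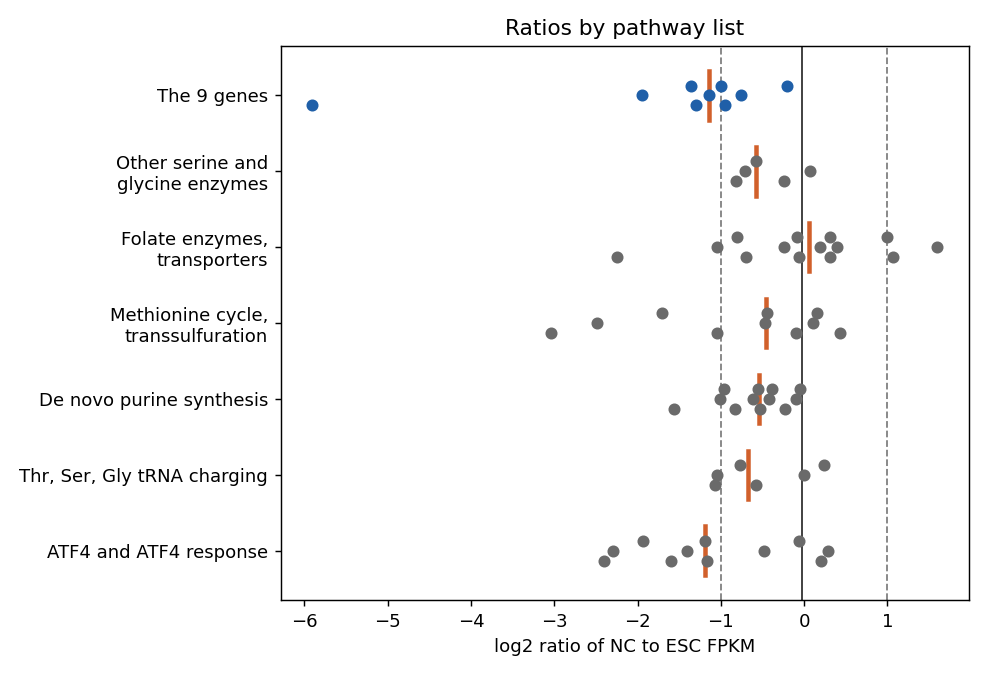
Log2 ratio of NC to ESC FPKM for each gene of the 9 and of the 6 pathway lists that passed the filter, with an orange bar at each list's median, a solid line at the median of all genes (-0.03) and dashed lines at a 2-fold difference. The medians of the 9 genes (-1.14) and of the ATF4 list (-1.19) lie past the left dashed line, and that of the folate list (0.06) lies near the solid line.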

How the data were processed

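RNA of 6 samples, 3 ESC and 3 NC, was sequenced by the authors from TruSeq libraries on an Illumina HiSeq. Per the labels and the methods, reads were mapped by TopHat 2.0.8 and Bowtie 2.1.0 on mm10, then passed to Cufflinks 2.0.2, Cuffmerge and Cuffdiff. The authors deposited 1 FPKM value per gene and condition. The heading of the NC column reads FPK and was taken as FPKM. The deposited log2 fold change, test statistic, p-value, q-value and significance columns hold the authors' own comparison and were not used.

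The ratio of NC to ESC FPKM was computed without a pseudocount for genes at 1 FPKM or more in ESCs, NCs or both, and a 2-fold difference was called. There were no replicate values and no test. The members and gene lists were chosen with earlier results of these data known. Named genes were all members, list genes past 2-fold or otherwise the most abundant of a list, and the 5 genes nearest to Tdh. Others are marked as chosen after their values were seen, apart from markers, overlapping genes, glycine cleavage subunits, Psph and Mthfd2l.

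Depth per sample is unknown. The lowest values of genes with 1 transcript of over 600 bases form steps. With a fragment length of 200 bases, the largest clear step was 0.0138 FPKM in ESCs against 0.0143 in NCs for 1 kb, and was taken as 1 fragment in the shortest transcript of a gene, which gives a lower count of fragments. Positions, overlaps and 50-base words came from GENCODE M21 on GRCm38, the assembly of mm10. Alternatives were pseudocounts, filters, scalings, fold limits and summed rows. Python 3.11.15, numpy 2.4.6, pandas 2.3.3 and matplotlib 3.10.9 were used.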

Additional observations from a re-analysis of the deposited data

How the results depend on the processing

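No paired analysis was possible because the table analysed holds 1 value per condition and no column of a single sample, and for the same reason no replicate could be left out. Of the 36 log2 ratios of members computed with a pseudocount of 0.1 or 1, after centring or after rescaling, 35 were below 0 and 1, that of Phgdh after rescaling, was above. Of the 9 members, 5 were lower in NCs under each pseudocount, filter, centring and summing of rows, 4 after rescaling, 8 with a limit of 1.5-fold and 1 (Tdh) with 4-fold, and 0 were higher under any alternative. For the pathway lists, rescaling left 10 genes lower in place of 17. A limit of 4-fold left 5 lower and 0 higher, and a pseudocount of 1 left 1 higher in place of 2. Over all genes, 1412 were lower and 1658 higher. These were 2403 and 2947 with no filter beyond values above 0, 924 and 873 at 1 FPKM or more in each condition, 2573 and 2741 at 1.5-fold, 488 and 679 at 4-fold, 974 and 1074 with a pseudocount of 1, and 230 and 119 with a mean FPKM of at least 30, a filter chosen after seeing the data. The limits and filters change these counts by their construction. Fragment counts cover counting error only.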

Other observations

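Other pathways that use glycine or S-adenosylmethionine were looked at after the values above were known, and they were not tested. Polyamine synthesis takes its aminopropyl groups from S-adenosylmethionine. Of its 4 genes measured here, Srm (spermidine synthase) had 138 FPKM in ESCs against 63.7 in NCs, a 2.17-fold difference, and was within 2-fold after rescaling. Odc1, the first enzyme of the pathway, had 314 and 204 FPKM, Sms had 46.3 and 36.8 FPKM, and Amd1 had 73.9 and 76.3 FPKM. Creatine synthesis joins glycine with an amidino group and then a methyl group. Gatm, its first enzyme, was 2.17-fold higher in NCs, with 3.19 FPKM in ESCs against 6.93 in NCs, and Gamt, its methyltransferase, had 2.76 and 2.97 FPKM. Heme synthesis starts from glycine and succinyl-CoA. Of its 8 genes past the filter, 0 were called lower and 1, Uros, was called higher (1.87 and 4.09 FPKM). Over all genes, 10.6% were called lower and 12.5% higher. The median log2 ratio of the heme genes was -0.04. Alas1, which takes up the glycine, had 16.0 FPKM in ESCs against 12.9 in NCs. With a pseudocount of 1, the log2 ratios of Gatm and Uros were 0.92 and 0.82, within 2-fold.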
